A study of Mus musculus with 4 samples.

Results

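The regions described here are the ATF4 peaks that lie deep inside genes in cortical neurons depleted of Opa1. They were chosen by position alone: the summit lay inside a protein-coding or lncRNA gene and more than 5 kb from both ends of every such gene. Of the 952 peaks in the knock-down list, 359 met this rule (37.7%, 95% Clopper-Pearson interval 34.6 to 40.9). The 2 ATF4 lists held 1045 peaks in all, 93 of them in the control list. The assay was ChIP-seq, which sequences the DNA that an ATF4 antibody pulls down, in primary neurons from cortices of CD1 mouse embryos (E14.5-15). The neurons carried a lentiviral hairpin from day 6 of culture, shControl (genotype WT) or shOpa1 (genotype Opa1 knock-down), and were harvested on day 11. Cytosine arabinoside at 2 µM, a mitotic inhibitor, was given to all cultures. Chromatin was fixed with formaldehyde for 30 min and sheared to about 150 bp. Each of the 4 groups (ATF4 ChIP with either hairpin, IgG ChIP and input DNA with shControl) was 1 library, so differences between conditions carry no replicate check and no test. The sources used here do not give the promoter that drives the hairpins, the number of animals or the depth, and peaks do not measure the loss of Opa1. No IgG or input library was analysed here. Peaks of the knock-down list held 13.7 to 214 tags, the authors' value for each peak, which is not a whole number at 3 of the 359 deep peaks.

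ATF4 is a basic leucine zipper factor whose translation rises when eIF2 alpha is phosphorylated, the core event of the integrated stress response. It pairs with C/EBP proteins on a composite element whose core reads TGATGNAA, and its classical targets are genes of amino acid supply. Opa1 is a GTPase that fuses the inner mitochondrial membrane, and mitochondrial faults are known to engage this response. Sites deep inside genes are often studied as candidate enhancers, but they can also sit at a second start site of the gene that holds them.

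The deposited files hold no sequence, so sequence could be read only where a peak met an annotated start. RefSeq windows of 250 bases upstream of such starts (build GRCm38.p6) met 6 of the 359 peaks, in 7 windows. Those of Slc7a11, Pafah1b2 and Clcn3 are shown, as those with a match inside the peak (Slc7a11, Pafah1b2) and the one at the summit nearest to a start (Clcn3). All are on the minus strand and read 5′ to 3′ toward the start. Capitals mark matches to the motifs searched on both strands: TGATGNAA, TGATGCAA (a case of the first), TGACGTCA, TGACGCAA, TTGCGCAA and TGANTCA.
Slc7a11, chr3:50443614-50443863: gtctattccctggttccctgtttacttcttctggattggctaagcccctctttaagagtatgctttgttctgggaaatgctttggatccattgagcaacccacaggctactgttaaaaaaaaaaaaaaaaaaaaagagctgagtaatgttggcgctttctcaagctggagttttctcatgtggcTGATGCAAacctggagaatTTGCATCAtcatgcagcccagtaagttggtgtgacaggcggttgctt
Pafah1b2, chr9:45985395-45985644: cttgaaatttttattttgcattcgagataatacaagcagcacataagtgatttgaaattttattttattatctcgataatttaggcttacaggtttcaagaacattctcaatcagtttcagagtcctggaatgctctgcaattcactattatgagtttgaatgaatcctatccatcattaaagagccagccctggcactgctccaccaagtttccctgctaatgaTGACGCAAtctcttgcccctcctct
Clcn3, chr8:60954800-60955049: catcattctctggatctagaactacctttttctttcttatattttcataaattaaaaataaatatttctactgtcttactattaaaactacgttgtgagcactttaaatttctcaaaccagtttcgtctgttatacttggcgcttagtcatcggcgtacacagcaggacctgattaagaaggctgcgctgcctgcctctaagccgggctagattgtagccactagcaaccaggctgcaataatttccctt

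The Slc7a11 window, upstream of a start of the cystine/glutamate antiporter gene, held TGATGCAA at base 185 and its reverse complement TTGCATCA at base 204, counted from the 5′ end of the window. These matches lay 17 and 36 bp from the peak summit. TGATGCAA occurred in 260 of 32851 windows of the same length (0.791%), 2 or more times in 2 windows, and the looser TGATGNAA in 3.45%. The Pafah1b2 window, of a platelet-activating factor acetylhydrolase subunit, held TGACGCAA at base 226, 80 bp from the summit. That motif occurred in 0.438% of all windows. The Clcn3 window, of an endosomal chloride/proton exchanger, held none of the motifs. In the other 4 windows the single match was TGACTCA upstream of Zfp385b (TGANTCA, in 6.75% of all windows), 423 bp from the summit and outside the peak. These matches describe the letters present and do not show which protein bound.

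The deep peaks were of moderate height. Their fold enrichment over the caller's background, the authors' own value for each peak, ran from 3.18 to 38.2 with a median of 8.13 and quartiles of 6.69 and 10.3. A fold of at least 10 was reached by 99 of 359 (27.6%, Clopper-Pearson interval 23.0 to 32.5), against 29.9% of the whole knock-down list. Folds of at least 15 were found at 24 and of at least 20 at 8. A further 240 lay from 5 to under 10, and 20 lay under 5. Tags per peak ran from 16 to 141 with a median of 29, and widths from 303 to 1152 bp with a median of 584 bp. In 24 of the 359 the deposited length was shorter than the interval and the p-value score was on a smaller scale. These 24 peaks had folds of 3.18 to 6.52. None overlapped a control peak, where 5.85% of all deep peaks and 1.25% of those with folds from 5 to under 10 did.

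Peaks near gene ends reached high folds more often than deep peaks. Of the 297 peaks within 5 kb of a gene end, 111 had a fold of at least 10 (37.4%), against 99 of 359 deep ones (odds ratio 0.638, 95% interval 0.453 to 0.90, two-sided Fisher's exact test, adjusted p = 0.018 over 4 tests between position classes). The 296 peaks between genes reached it in 75 cases (25.3%), and a difference from the deep peaks was not detected (exact test, odds ratio 1.12, interval 0.78 to 1.62, adjusted p = 0.71). These tests take peaks of 1 library as units and do not compare conditions. With a fold minimum of 8 the difference from peaks near gene ends missed the threshold (Fisher's exact test, adjusted p = 0.31), as it did with a distance limit of 10 kb (adjusted p = 0.054).

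**Figure D1:**
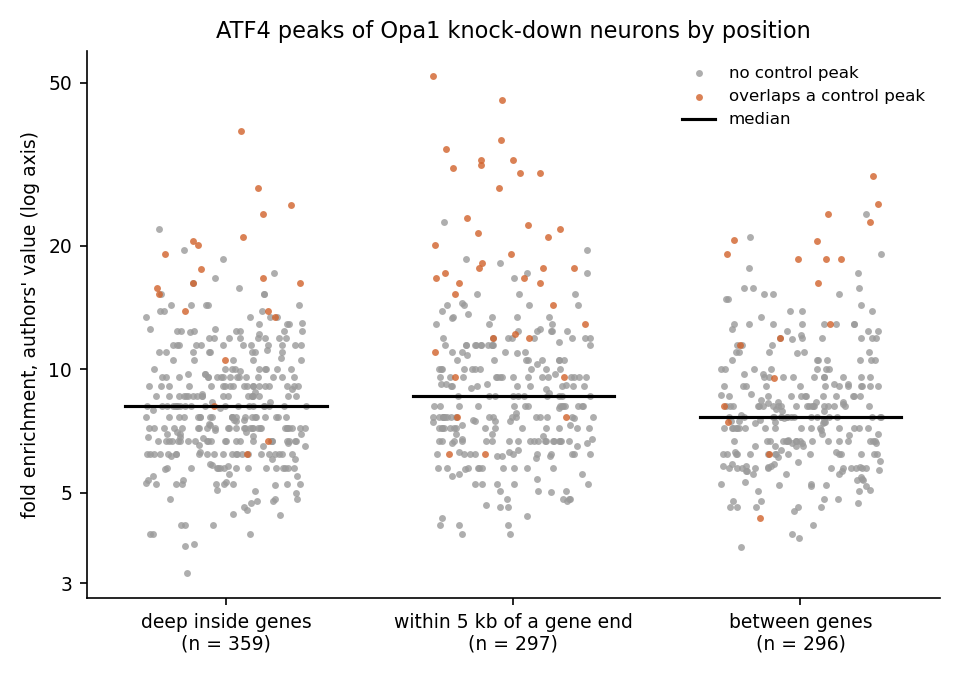
Fold enrichment (authors' value, log axis) of every peak in the Opa1 knock-down list, by position class, with horizontal jitter. Orange points overlap a control peak and black lines are medians: 8.13 deep inside genes, 8.6 within 5 kb of a gene end and 7.65 between genes, with the highest folds near gene ends.

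Few deep peaks were found in both conditions. An overlap of at least 1 bp with a control peak was present for 21 of 359 (5.85%, Clopper-Pearson interval 3.66 to 8.80), against 8.4% of the whole knock-down list. Near gene ends it was 40 of 297 (13.5%), a higher share (odds ratio 0.399, interval 0.218 to 0.714, Fisher's exact test, adjusted p = 0.0043). Between genes it was 19 of 296 (6.42%), and no difference was detected (exact test, odds ratio 0.906, interval 0.453 to 1.82, adjusted p = 0.87). The control list bounds these shares, as it held only 24 deep peaks, 44 near gene ends and 25 between genes. Of those control peaks 87.5%, 90.9% and 76% overlapped a knock-down peak. The contrast with gene ends therefore cannot be told apart from how the control list divides by position. Height moved with overlap: 7 of 8 deep peaks with a fold of at least 20 overlapped a control peak, 7 of 16 from 15 to under 20, 4 of 75 from 10 to under 15, 3 of 240 from 5 to under 10 and 0 of 20 under 5. Among peaks with a fold of at least 10 alone, the contrast with gene ends missed the threshold (odds ratio 0.503, Fisher's exact test, adjusted p = 0.078 over 2 tests).

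In the control list 24 of 93 peaks met the same positional rule (25.8%), and 21 of them were the partners of the 21 shared sites. The remaining 3 had no knock-down partner and lay inside Fam162a (fold 5.02, 16 tags), Enox1 (5.44, 17 tags) and the lncRNA Gm32647 (6.54, 17 tags). All 3 folds lay below the median of 6.9 over the 24. Enox1 and Gm32647 each also held a deep knock-down peak elsewhere in the gene, with folds of 5.26 and 8.13.

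Each of the 21 shared sites had the higher fold with shOpa1. The folds ran from 4.40 to 12.3 (median 6.9) in the control list and had a median of 16.25 in the knock-down list. The ratio of knock-down to control fold had a median of 2.3 and a range of 1.07 to 5.08. The other position classes were alike. Near gene ends the knock-down fold was higher at 37 of 40 shared peaks (median ratio 2.22), and between genes at 17 of 19 (2.26). The folds come from separate calls with unknown depth and settings, so these ratios describe the lists and are not a measured change in binding. Summits of the pairs lay within 50 bp of each other at 16 sites and at most 79 bp apart.

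**Figure D2:**
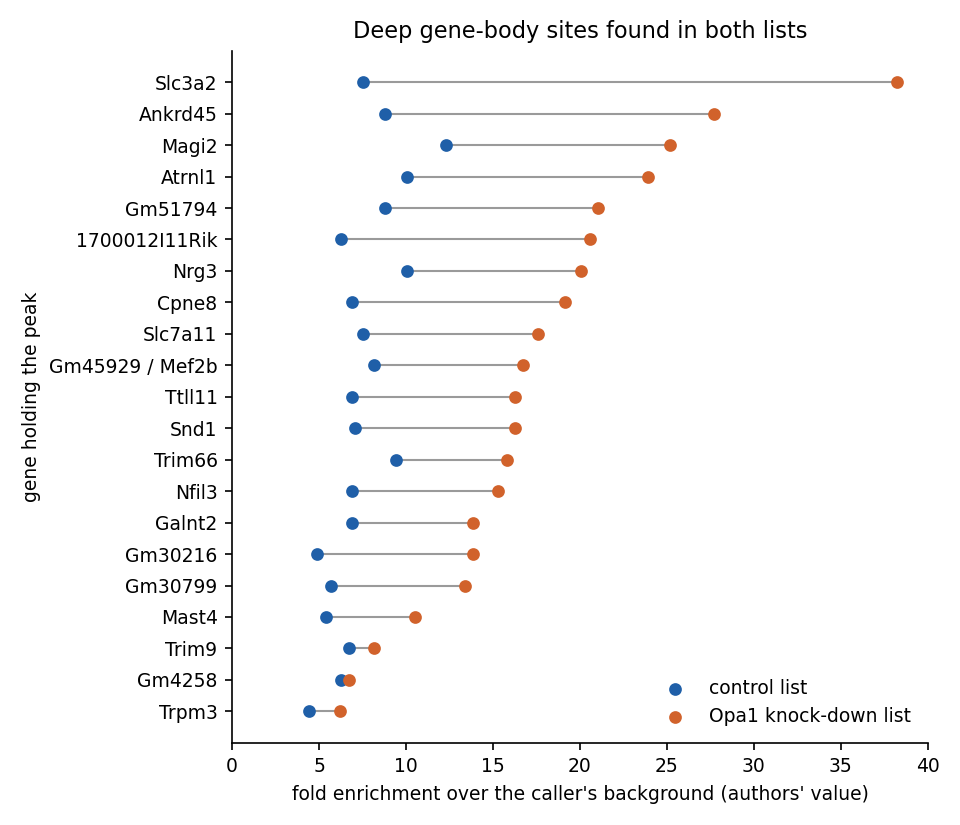
Fold enrichment (authors' value, linear axis) of the 21 deep sites present in both lists, named by the gene that holds them. Blue points are the control list and orange points the Opa1 knock-down list, 1 library each; every orange point lies to the right, by 1.07 to 5.08 times.

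The highest deep peak lay in Slc3a2, the heavy chain that pairs with several amino acid transporter light chains. At chr19:8712631-8713416 (mm10) its fold was 38.2, from 116 tags (95% Poisson interval 95.9 to 139). The control peak there had a fold of 7.53 and 21 tags (13.0 to 32.1), and their ratio of 5.08 was the largest among shared deep sites. The summits lay 3 bp apart, 6142 bp from the nearest gene end and 873 bp from an annotated start.

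Slc7a11, a light chain that pairs with Slc3a2 to import cystine, held 2 deep peaks. The stronger, at chr3:50443321-50444061, had a fold of 17.6 and 61 tags (46.7 to 78.4), and its control partner 7.53 and 21 tags. It lies 55.4 kb inside the outer limits of the gene but 79 bp from an internal start, the one whose upstream window is printed above. The weaker, 5.02 kb away, had a fold of 7.17 and 19 tags and no control partner. Slc7a5, the light chain that pairs with Slc3a2 to carry large neutral amino acids, held the highest deep peak without a control partner. At chr8:121897996-121898961 it had a fold of 22.0 and 111 tags (91.3 to 134), and the nearest control peak was 46939 bp away.

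Control folds of at least 10 were found at 3 shared deep sites. In Magi2, a synaptic scaffold, the peak at chr5:19309607-19310374 had folds of 12.3 (41 tags) with shControl and 25.2 (104 tags) with shOpa1. In Atrnl1, an attractin-like membrane protein, the peak at chr19:57762137-57763288 had folds of 10.04 (46 tags) and 23.9 (141 tags). In Nrg3, a neuregulin ligand of the receptor ErbB4, they were 10.04 (33 tags) and 20.1 (76 tags). In each of the 3 the knock-down fold was at least 2 times the control fold.

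The further shared sites had control folds under 10. The peak in Ankrd45, an ankyrin repeat gene, had folds of 8.78 and 27.7 and lay 5489 bp from the neighbouring gene Tex50. Cpne8, a calcium-dependent lipid-binding copine, had 6.9 and 19.1. A site in both Mef2b, a MADS-box transcription factor, and the overlapping Gm45929 had 8.15 and 16.7. Ttll11, a tubulin polyglutamylase, had 6.9 and 16.2, and Snd1, a staphylococcal nuclease-like RNA-binding protein, 7.05 and 16.2. Trim66 had 9.41 and 15.8. Nfil3, a basic leucine zipper repressor, had 6.9 and 15.3. Galnt2, an enzyme that starts O-linked glycosylation, had 6.9 and 13.9, and the kinase gene Mast4 5.40 and 10.5. The 3 shared sites with a knock-down fold under 10 were those in Trim9, a brain ubiquitin ligase (6.71 and 8.13), Trpm3, a cation channel (4.40 and 6.21), and the lncRNA Gm4258 (6.27 and 6.69).

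Genes for lncRNAs alone held 33 of the 359 peaks, and 5 of these were shared (15.2%, Clopper-Pearson interval 5.11 to 31.9), against 16 of 326 in coding genes (4.91%, 2.83 to 7.85). That difference was not tested. The 5 lay in Gm51794 (folds of 8.78 with shControl and 21.0 with shOpa1), 1700012I11Rik (6.27 and 20.6), Gm30216 (4.86 and 13.9), Gm30799 (5.67 and 13.4) and Gm4258. Median folds were alike, at 8.03 in lncRNA genes and 8.13 in coding genes.

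Across the whole knock-down list, shared peaks included, 29.9% had a fold of at least 10. Of the 338 deep peaks without a control partner, 81 did, and the median fold of the 338 was 7.65. After Slc7a5 the highest were in Rabep1, an effector of the endosomal GTPase Rab5 (fold 19.6, 69 tags), and Abr, a regulator of small GTPases (18.6, 61 tags). They were followed by Cadm2, a synaptic adhesion molecule (17.2, 71 tags), App, the amyloid precursor protein (16.7, 68 tags), and Fbln2, an extracellular matrix protein (16.2, 49 tags). Outside Slc7a5, the nearest control peak to each of these lay more than 2 Mb away. The control list held only 93 peaks, so such distances do not set these sites apart.

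Deep peaks took a somewhat larger share of the list than the share of sequence open to them. Sequence that meets the rule made up 33.9% of annotated chromosome length, against 37.7% of the peaks (Clopper-Pearson interval 34.6 to 40.9). The stretch within 5 kb of gene ends made up 18.1% of the length and 31.2% of the peaks, and sequence between genes 48% and 31.1%. This gives 0.392 deep peaks per Mb (Poisson interval 0.352 to 0.434), 0.607 near gene ends (0.54 to 0.68) and 0.228 between genes (0.203 to 0.256). Mappability was not known here. On the X chromosome 5 deep peaks gave 0.123 per Mb (0.0398 to 0.286), and autosomes had 0.223 (chromosome 17) to 0.568 (chromosome 6).

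Larger shares of longer genes held a deep peak. Of the 18977 genes with any sequence that meets the rule, 330 held a deep peak (1.74%). Among coding genes the share rose from 0.437% at 10 to 50 kb to 30.4% at 500 kb and over (69 of 227 genes). Per Mb of deep sequence the values were 0.315 (0.222 to 0.434) in the shortest class and 0.482 (0.386 to 0.593) in the longest, and the interval of every class took in 0.392. Densities were not tested between length classes. Coding genes with a deep peak had a median length of 197 kb, against 34.1 kb for all coding genes with deep sequence. Median folds by length class were 7.51 to 8.23, with no order by length. The 273 peaks with a single host of known strand fell into 4 equal parts of its deep stretch, from start to end, as 54, 88, 71 and 60.

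**Figure D3:**
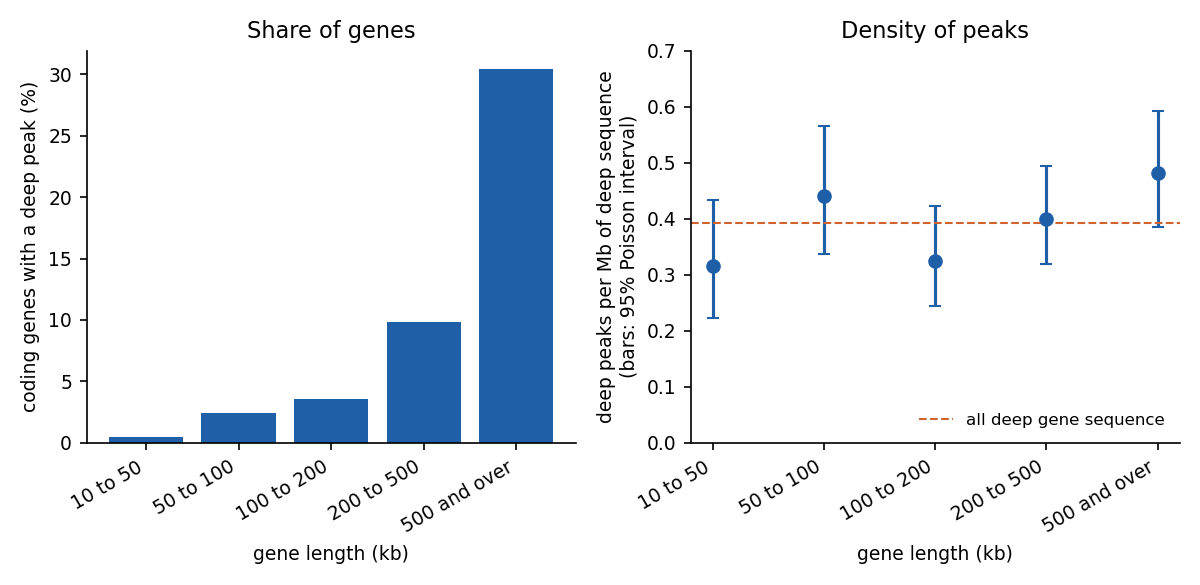
Left, share of coding genes with a deep knock-down peak by gene length, on a linear axis from 0. Right, deep peaks per Mb of deep sequence with 95% Poisson intervals, and a dashed line at 0.392 for all deep gene sequence; the share climbs with length while every interval includes the line.

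Counts over gene lists are descriptions, since the lists were compiled with earlier results of these data known. All 441 genes in 19 lists matched the annotation, and 41 of them held 58 of the 359 deep peaks. The other 301 lay in genes outside the lists. Amino acid transporters had 3 of 24 genes with deep sequence bound (12.5%), Slc3a2, Slc7a5 and Slc7a11. Among all genes with deep sequence the share was 1.74%, and among coding ones 2.15%. The 4 peaks of the transporter genes over 0.861 Mb gave 4.65 per Mb (Poisson interval 1.27 to 11.9), and 2 were shared. Amino acid synthesis and one-carbon genes had 2 of 16: Mthfd2, of mitochondrial folate metabolism (fold 15.3, 69 tags), and Psph, which completes serine synthesis (6.69, 30 tags). Among synthetases the 1 of 32 was Fars2, the mitochondrial phenylalanyl-tRNA synthetase (9.56, 33 tags).

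Regulators and targets of the integrated stress response held 0 deep peaks in 9 genes with deep sequence. The same count of 0 stood for 14 genes of endoplasmic reticulum folding and 17 of mitochondrial chaperones, proteases and dynamics. These 3 lists have only 0.22 to 0.398 Mb of deep sequence each, and the upper Poisson limits of their densities were 9.26 to 16.8 per Mb. Astrocyte (5), oligodendrocyte lineage (6) and microglia (5) marker genes with deep sequence also held 0. Their lists have 0.175 to 0.208 Mb of deep sequence each, with upper limits of 17.7 to 21.1 per Mb. Of 13 neuron markers, with 1.58 Mb, Syt1, the synaptotagmin of vesicle release, held 1 (fold 5.26, 18 tags). For comparison, 2.15% of all coding genes with deep sequence held a deep peak, so lists of this size would mostly hold few or none. Peaks are not expression, so the marker counts say nothing of which cells were present.

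Neuronal adhesion genes had 8 of 45 members bound (17.8%, against 2.15% of all coding genes with deep sequence), with 14 peaks. Of these peaks 0 were shared, where 5.85% of all deep peaks were. Per Mb of the 33.2 Mb of deep sequence in adhesion genes the value was 0.422 (0.231 to 0.708), close to the 0.392 of all deep sequence. Among them were Cntn4, Cadm2, Tenm3, Tenm4, Cdh18, Negr1 and Opcml, with folds of 4.83 to 17.2. Postsynaptic scaffold and regulator genes had 4 of 27 with 8 peaks (0.578 per Mb, 0.25 to 1.14): Magi2, Nrg3, Dlg2 and Dlgap1 (fold 12.4). Presynaptic genes had 5 of 26 with 5 peaks (0.746 per Mb, 0.242 to 1.74), the highest in Rims1, an active zone scaffold (12.2), and Sgip1, of endocytosis (11.5).

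Receptors for glutamate and GABA had 3 of 32 bound (9.38%, against 2.15% of all coding genes with deep sequence). Their density was 0.272 per Mb (0.056 to 0.794), against 0.392 for all deep sequence, and they included Gabrb1 (fold 11.0) and Grid1 (6.69). Voltage-gated channel genes had 3 of 30 (0.324 per Mb, 0.0884 to 0.83): Cacna1b, Cacna2d1 and Dpp10, all with folds of 5.74 to 6.83. Axon guidance genes had 5 of 30 with 7 peaks (0.613 per Mb, 0.246 to 1.26). They were Dcc, a netrin receptor (14.3 and 8.6), Robo2 (9.56 and 6.21), Epha6 (9.08), Robo1 (7.65) and Sema6d (6.83). Phosphodiesterase and adenylyl cyclase genes had 4 of 22 with 6 peaks (1.05 per Mb, 0.387 to 2.29), in Adcy8 (13.4), Pde4d, Pde3b (7.65) and Pde1c (5.74). Neuronal splicing regulators had 2 of 22 (0.377 per Mb, 0.0456 to 1.36), Rbfox1 (7.65) and Celf2 (3.69). Genes of amyloid precursor processing had 1 of 16, App, with 2 peaks (1.37 per Mb, 0.166 to 4.97). Apart from amino acid transporters (4 peaks) and amino acid synthesis (2 peaks), every list interval took in 0.392 per Mb. In these 2 lists the peaks of Slc3a2, Slc7a11 (the stronger) and Mthfd2 lay 873, 79 and 434 bp from an annotated start. As the lists were compiled with earlier results of these data known, this is a description and not a test.

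**Figure D4:**
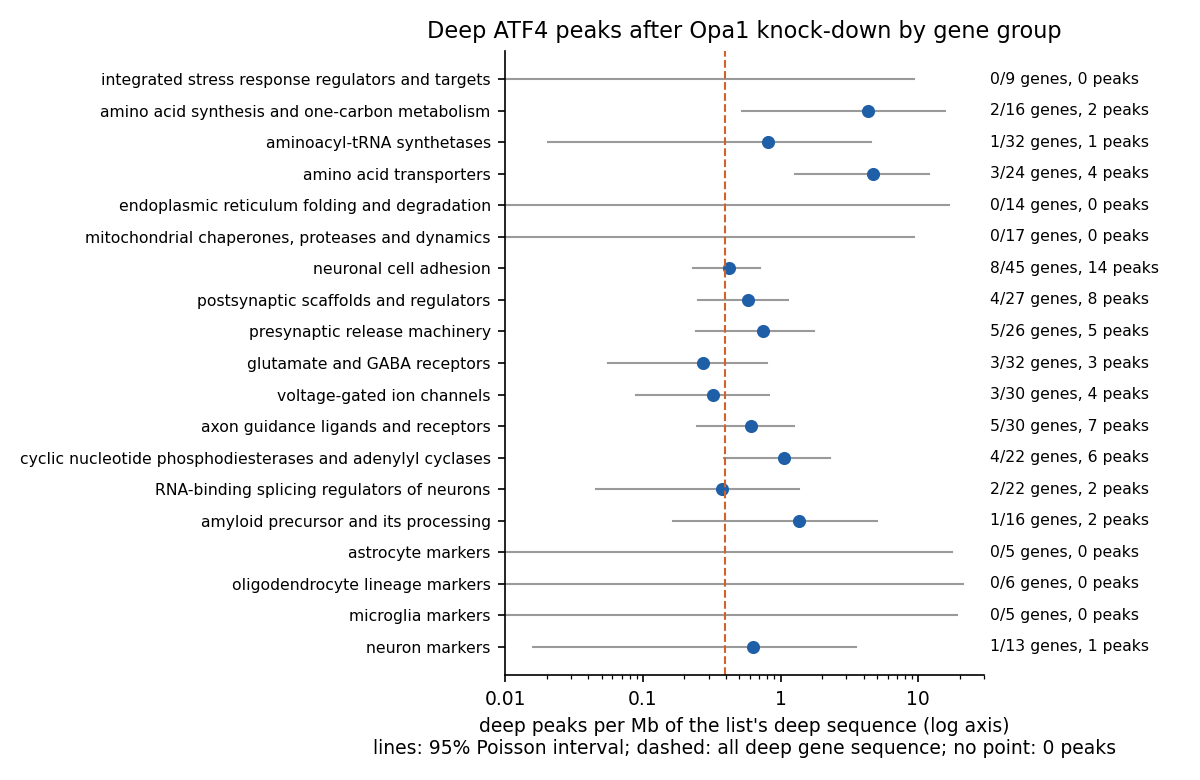
Deep knock-down peaks per Mb of deep sequence (log axis) for the 19 gene lists, with 95% Poisson intervals as grey lines and a dashed line at 0.392 for all deep gene sequence. Labels give genes with a deep peak of genes with deep sequence; amino acid transporters stand at 4.65 and neuronal adhesion at 0.422, and lists without a point held 0 peaks.

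More than 1 deep peak was found in 31 genes, which held 65 of the 359. Of these genes 16 were at least 500 kb long and 2 were under 100 kb. Cntn4, a contactin, held 3 within 149 kb (folds 15.8, 8.6 and 8.13), Dlg2, a postsynaptic scaffold, 3 spread over 823 kb (12.4, 8.6 and 6.95), and Pde4d, a cAMP phosphodiesterase, 3 over 1046 kb (11.5, 11.5 and 5.26). The others held 2 each. In App they lay 35.1 kb apart, with folds of 16.7 and 13.9. In Foxp1, a forkhead factor, they were 8.83 kb apart (15.3 and 9.08), and in Psd3, an exchange factor for Arf6, 16.2 kb apart (13.9 and 13.4).

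Close pairs were the exception: the nearest 2 peaks of a gene were under 10 kb apart in 5 of the 31 genes and over 100 kb apart in 13. The 5 were Lrrc8c (1.62 kb), Slc7a11 (5.02 kb), Rmnd5a (7.13 kb), Ldb2 (8.13 kb) and Foxp1. In 4 of the 31 genes, Magi2, Nrg3, Mast4 and Slc7a11, 1 peak had a control partner, in each case the one with the higher fold. Of all deep peaks 5.85% had a control partner. In Mast4 the shared peak had fewer tags (30) than the unshared one (38). Further pairs lay in Cadm2, Dcc, Robo2, Nfib, Tcf4, Negr1, Opcml, Tenm4, Prkg1, Pcca, Pid1, Slc24a2, Slc39a11, Cacna1b, Hsd17b12, Wdfy3, Garem1 and A830018L16Rik.

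**Figure D5:**
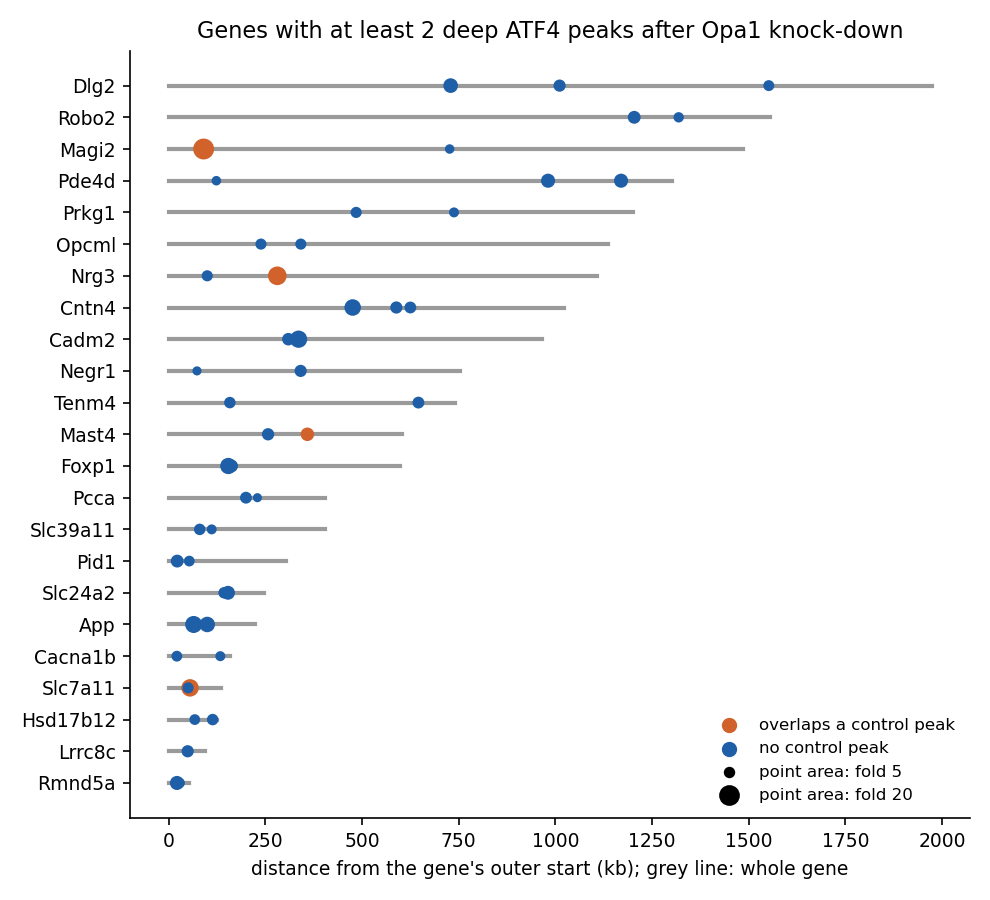
Position of deep knock-down peaks in the 23 of 31 multi-peak genes whose strand was in the table of starts, as distance from the outer gene start in kb (linear axis). Point area is proportional to fold, orange points overlap a control peak, and pairs range from 1.62 kb apart in Lrrc8c to 636 kb in Magi2.

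Some deep peaks lay at a start inside the gene. Among 342 members on chromosomes with annotated starts in the table used, 10 had a summit within 1 kb of a start (2.92%, Clopper-Pearson interval 1.41 to 5.31), where 0.482% of deep sequence lies that close. The median distance was 42.2 kb. Besides Slc7a11, Slc3a2, Pafah1b2 (59 bp) and Clcn3 (47 bp), these were Mthfd2 (434 bp), Pde4dip (88 bp), Larp1 (322 bp), Zfp385b (465 bp), Aff1 (764 bp) and 1600002D24Rik (688 bp). Their folds ran from 4.72 in Clcn3 to 38.2, and the 2 shared ones were Slc3a2 and Slc7a11. The table lacks starts for many genes, so this count is a lower one. Without these 10, overlap with control was 5.44% of 349 (odds ratio against gene ends 0.37, Fisher's exact test, adjusted p = 0.0021). They were left out of the deep class alone and 2 were shared, which lowers its share, so this is no check of that contrast.

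At the far end, the summits most distant from a gene end lay in Gm32647 (628.6 kb, fold 8.13), Rbfox1 (608.8 kb, 7.65), Gpc5 (544.1 kb, 5.49), Nkain2 (493.9 kb, 7.65) and Cntn4 (476 kb, 15.8). The median distance of all 359 was 30.9 kb, with 71 beyond 100 kb and 56 between 5 and 10 kb. At the limit itself, the 5 summits just inside lay in Gm35880 (5149 bp, fold 6.52), Nfe2l1 (5375 bp, 9.56), 9330159F19Rik (5391 bp, 5.37), Tsc22d3 (5399 bp, 10.04) and Gm38477 (5467 bp, 5.26). The 5 just outside lay in Cnot6l (4975 bp, 6.69), Gm32539 (4902 bp, 11.5), Evi5 (4900 bp, 6.59), Gm38534 (4758 bp, 8.13) and Gm34264 (4660 bp, 3.97). None of these 10 overlapped a control peak, where 8.4% of the whole knock-down list did. The strong intragenic peaks of Auts2 (fold 30.1), Aars (30.1) and Tmx3 (36.3) fell outside the rule, at 3513, 1962 and 1731 bp from a gene end.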

How the data were processed

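Peak lists of the ATF4 ChIP libraries with shControl and shOpa1 were used; those of IgG ChIP and input DNA were not analysed here. Per the submitters' processing notes, mm10, MACS2, deepTools and MultiQC were used. The sources used here give no aligner, thresholds, calling control or depth. The deposited values are the authors' own: position, rank, p-value score, fold enrichment (a ratio), length, summit and tags. Starts were read as 1-based, since length mostly equals the interval.

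Summits were placed against 34627 coding and lncRNA genes of RefSeq (GRCm38.p6, the coordinates of mm10). Host strand was known for 275 of 359 members. Starts and upstream sequence came from 32851 RefSeq windows. Motifs at peak summits, exons and introns need a genome and were not analysed here. Classes were compared by two-sided Fisher's exact tests over peaks, with Benjamini-Hochberg adjustment over 4 tests, a threshold of 0.05 and conditional intervals for odds ratios. Intervals are at 95% and cover counting error only.

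Members, gene lists and tests were chosen with earlier results of these data known. Named are the 15 highest folds, shared sites, genes with 2 or more deep peaks, list members, the 5 farthest summits, 5 on each side of the limit and unshared control peaks; sequences are of peaks at annotated starts, chosen after the values were seen. Some list members are not reported here. The steps were checked on simulated peaks placed on 34627 genes (600 of 600 classes and 120 of 120 planted overlaps of control and knock-down peaks recovered). Computation used scipy 1.17.1, pandas 2.3.3 and numpy 2.4.6 under Python 3.11.15, and plots matplotlib 3.10.9.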

Additional observations from a re-analysis of the deposited data

How the results depend on the processing

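Settings were a distance limit of 2 or 10 kb, coding genes alone, the peak middle, the better-ranked peaks of each list up to its median rank, the first score form, merging within 1 kb, 2 other overlap rules and 2 other fold minimums. Leaving out members at internal starts and taking folds of at least 10 alone were chosen after seeing the data. Among the better-ranked peaks, with fewer peaks by construction, 180 deep peaks had a median fold of 10.3 and 54.4% reached 10. The share of deep peaks past the fold minimum was 51.3% at 8 and 6.69% at 15, also by construction. The lower share of high folds than near gene ends missed the threshold at a limit of 10 kb (odds ratio 0.689, Fisher's exact test, adjusted p = 0.054) and a fold minimum of 8 (0.796, adjusted p = 0.31). The lower overlap with control missed it among folds of at least 10 (0.503, Fisher's exact test, adjusted p = 0.078); the cause was not tested. Under the remaining alternatives both contrasts passed the threshold, and those with peaks between genes passed it under none. The contrasts with peaks between genes, which passed no threshold, reversed their direction in 3 cases: that of high folds was 0.892 at a fold minimum of 15 and 0.956 among the better-ranked peaks, against 1.12, and that of overlap was 1.54 among the better-ranked peaks, against 0.906. No paired analysis was possible because there is 1 library per condition. Alternatives for motifs at summits need a genome and were not run. Depth is unknown, and absence from the control list does not show that a site was unbound.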

Other observations

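Genes of transcription factors and other transcriptional regulators among the hosts, picked after their values were seen, add to those named above. Nrf1, an activator of nuclear genes for respiration, held a deep peak 45880 bp from a gene end with a fold of 14.3, from 64 tags (95% Poisson interval 49.3 to 81.7). Nfe2l1, a factor of proteasome recovery, had a fold of 9.56 and 42 tags (30.3 to 56.8). Foxj3, a forkhead factor, had 11.5 and 38 tags (26.9 to 52.2). Peaks in Nfib (9.56 and 5.07) and Tcf4 (7.65 and 4.83) came in pairs. Tsc22d3, a glucocorticoid-induced leucine zipper gene on the X chromosome, had 10.04 and 31 tags. None of these overlapped a control peak, where 5.85% of all deep peaks and 8.4% of the whole knock-down list did.

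A further 3 hosts were picked in the same way. Apip, an enzyme of methionine salvage, held a peak with a fold of 14.3 and 49 tags (36.3 to 64.8) that lay 7950 bp from a gene end. Gsk3b, a kinase of insulin and Wnt signalling, had 10.5 and 28 tags (18.6 to 40.5), and Deptor, an inhibitor of mTOR, 9.75 and 29 tags (19.4 to 41.7). None had a control partner, which was also so for 338 of the 359 deep peaks.

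Hairpins of 6 microRNAs lay within 5 kb of a deep summit, the nearest being Mir3097 (1129 bp, fold 6.62) and Mir211 (1190 bp, fold 12.3), the latter peak inside Trpm1. No deep summit lay inside a pseudogene, transfer RNA or other small RNA gene of the annotation.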
